A study of Saccharomyces cerevisiae with 27 samples.

Results

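RNA polymerase I is the nuclear enzyme that transcribes the ribosomal RNA genes, and the genes described here encode 7 of its subunits (RPA190, RPA135, RPA49, RPA43, RPA34, RPA14 and RPA12) and RRN3, the initiation factor that makes the enzyme competent to start on the rDNA promoter. They were chosen by name, through the annotation of the array's probe sets, and all 8 were found, with 1 probe set each, among 5434 named genes. Their messenger RNA was measured in budding yeast, on 27 Affymetrix Yeast Genome 2.0 arrays, in 4 groups. Wild type gave 7 arrays of uncut cells and 6 of cells with an induced double-strand break, and scc2-4 gave 7 of each. scc2-4 is a temperature-sensitive allele of SCC2, which encodes a subunit of the complex that loads the cohesin ring onto chromosomes. The arrays came from 2 experiments: each group had 3 arrays in experiment 1, and in experiment 2 it had 4, or 3 for cut wild type. Per the labels, all cells were haploid and of W303 origin, grew in medium with 2% raffinose, and were warmed once an arrest in G2/M was in place. Galactose was added 30 min after the warming, and cells were collected 90 min after the galactose. Galactose induces the HO endonuclease, which cuts its recognition site once. Every group received galactose, so the cut and uncut groups are taken to be strains that carry or lack that site, and an effect of the break cannot be told apart from another difference between those strains. The labels place the site on chromosome VI in one field and on chromosome IV in another. RPA14 lies on chromosome IV, and no member lies on chromosome VI.

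In yeast, RNA polymerase I makes a single long precursor that is processed into most of the rRNA of the ribosome, and its output is matched to growth. RPA190 and RPA135 form the catalytic core. RPA43 and RPA14 form the stalk, which emerges beside the RNA exit path, and RPA43 is the contact for RRN3. RPA49 and RPA34 form a heterodimer that resembles general transcription factors of RNA polymerase II and aids initiation and elongation, and RPA12 takes part in RNA cleavage and termination. The enzyme also holds subunits that it shares with the other nuclear polymerases. The measurements here are of the mRNAs that encode these proteins, not of rRNA or of polymerase activity.

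The genes are RPA190 (YOR341W, probe set 1770824_at), RPA135 (YPR010C, 1771463_at), RPA43 (YOR340C, 1776091_at), RPA14 (YDR156W, 1777121_at), RPA49 (YNL248C, 1779813_at), RPA34 (YJL148W, 1770485_at), RPA12 (YJR063W, 1778487_at) and RRN3 (YKL125W, 1770213_at). RPA190 and RPA43 are neighbours on chromosome XV and lie on opposite strands. The others are on chromosomes XVI (RPA135), IV (RPA14), XIV (RPA49), X (RPA34 and RPA12) and XI (RRN3).

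All values are log2 expression values as deposited. The arrays fell into 3 sets by their value distributions: the 12 arrays of experiment 1, the 7 wild-type arrays of experiment 2 and the 8 scc2-4 arrays of experiment 2. The mean gap between the sorted values of 2 arrays was 0.00818 to 0.0302 inside a set and 0.147 to 0.425 across sets. The genotypes can therefore be compared within 1 set only in experiment 1, whereas in experiment 2 genotype and set cannot be told apart. The effect of the break lies within 1 set in each experiment. SCC2 mRNA was lower in scc2-4 by 0.35 ± 0.05 (SE) without a break and by 0.49 ± 0.05 with one in experiment 1. These values do not check the labels, since the allele alters the protein. Changes below are scc2-4 minus wild type, or break minus no break, from one limma fit over all 27 arrays, with p-values adjusted by Benjamini-Hochberg over 5434 genes and a threshold of 0.05.

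**Figure D1:**
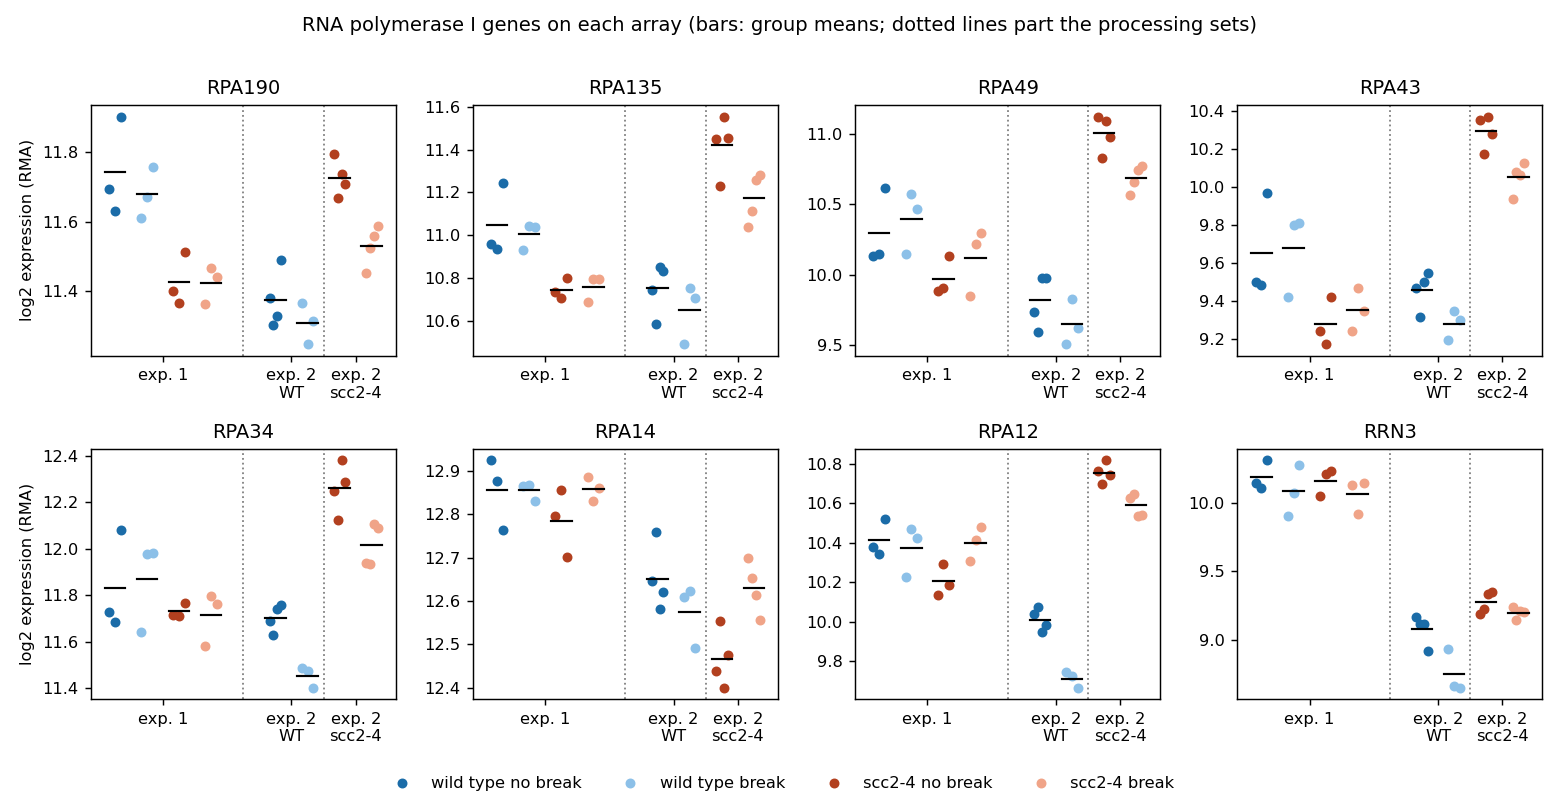
Log2 expression of the 8 genes (y axes, one panel per gene, each with its own range) on all 27 arrays, split along the x axis into the 3 sets of arrays, where WT is wild type. Points are single arrays, blue for wild type and red for scc2-4, in a dark tone without a break and a light tone with one, and bars are group means. In experiment 1 the scc2-4 points of RPA190 and RPA135 lie below the wild-type points, and in experiment 2 the scc2-4 points of RPA135, RPA49, RPA43, RPA34 and RPA12 lie above them.

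The first question was whether the mutant differs from wild type in cells without a break. In experiment 1, 4 of the 8 genes were lower in scc2-4 and none was higher: both catalytic subunits, RPA190 and RPA135, the stalk subunit RPA43 and the cleavage subunit RPA12. The falls were small, 1.16- to 1.29-fold. Fitted to experiment 1 alone, 2 of the 8 passed, RPA190 and RPA135, beside 28.9% of all genes. RPA49, RPA34, RPA14 and RRN3 did not pass the test, with values of −0.33, −0.10, −0.07 and −0.02. Across all genes 34.5% passed the test in this comparison, 16.7% as lower. The median change of the 8 genes was −0.25, beside 0.00 for all 5434 genes.

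RPA190, the largest subunit, read 11.69, 11.63 and 11.90 in wild type and 11.40, 11.37 and 11.51 in scc2-4. The ranges did not overlap, and the change was −0.31 ± 0.06 (SE, n = 3 and 3), with a 95% interval from −0.44 to −0.18 and a limma adjusted p of 0.000499. RPA135, the second-largest subunit, which completes the active site with RPA190, read 10.96, 10.93 and 11.24 in wild type and 10.73, 10.71 and 10.80 in scc2-4. Its ranges were also separate, and the change was −0.30 ± 0.09 (limma adjusted p = 0.0132). The catalytic subunits thus differed between the genotypes by nearly the same amount.

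The stalk subunits did not share a result. RPA43 read 9.50, 9.48 and 9.97 in wild type and 9.24, 9.17 and 9.42 in scc2-4, a change of −0.37 ± 0.11 (limma adjusted p = 0.0119). Its partner RPA14 read 12.93, 12.88 and 12.76 in wild type and 12.80, 12.86 and 12.70 in scc2-4, with overlapping ranges and a change of −0.07 ± 0.05 (limma adjusted p = 0.328; 95% interval from −0.18 to 0.04). The difference between the changes of RPA43 and RPA14 was not tested.

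In the heterodimer, RPA49 read 10.13, 10.15 and 10.61 in wild type and 9.88, 9.91 and 10.13 in scc2-4. The ranges were just separate, the highest scc2-4 array and the lowest wild-type array both rounding to 10.13, and the change of −0.33 ± 0.14 was as large as that of RPA190 but missed the threshold (limma adjusted p = 0.0739). Same-numbered arrays of the 2 genotypes deviated together in experiment 1, and with these numbers as a block within each break state RPA49 passed, without a break (limma adjusted p = 0.0138) and with one (limma adjusted p = 0.0321). In that fit 5 of the 8 genes passed without a break and 4 with one, all lower, beside 40.9% and 42.1% of all genes in either direction. RPA34 read 11.73, 11.68 and 12.08 in wild type and 11.72, 11.71 and 11.77 in scc2-4, a change of −0.10 ± 0.09 (limma adjusted p = 0.438). One wild-type array stood above the rest in both genes.

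RPA12 read 10.38, 10.34 and 10.52 in wild type and 10.14, 10.29 and 10.19 in scc2-4. Its ranges were separate, and the change was −0.21 ± 0.06 (limma adjusted p = 0.012). RRN3 read 10.14, 10.10 and 10.31 in wild type and 10.04, 10.21 and 10.23 in scc2-4, with mixed ranges and a change of −0.02 ± 0.09 (limma adjusted p = 0.857; 95% interval from −0.21 to 0.16). In all, 5 of the 8 genes had no overlap between the genotypes, with scc2-4 lower, beside 21.2% of all genes.

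The size of this difference depended on the wild-type array 1_3, replicate 3 of experiment 1. All 7 genes other than RPA14 read above their group mean on it, by 0.21 on average, while RPA14 read below. On the same-numbered scc2-4 array 6 of these 7 read above their mean, by 0.075 on average over the 7. A fit without both arrays is not given here. Without the wild-type array 1_3 only RPA190 passed the test, at −0.24 (limma adjusted p = 0.00516), beside 30.1% of all genes. The changes of RPA135, RPA43 and RPA12 were then −0.20, −0.21 and −0.15. Without scc2-4 array 1_1 RPA12 missed the threshold, and without scc2-4 array 1_2 RPA43 did. RPA190 passed in all 27 fits that each left out 1 array, with changes from −0.37 to −0.24. Only the fits without an array of the groups compared, 3 arrays each, alter that estimate. When the 2 closest arrays of each group were averaged, 2 of the 8 genes passed, RPA190 and RPA12, beside 21% of all genes. This averaging and the block were chosen after seeing the data.

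In cells with a break the same comparison in experiment 1 gave 3 lower genes, RPA190, RPA135 and RPA43, which were also lower without a break. Across all genes 36.3% passed the test, 17% as lower. RPA190 read 11.61, 11.67 and 11.76 in wild type and 11.36, 11.47 and 11.44 in scc2-4, a change of −0.26 ± 0.06 (limma adjusted p = 0.00274). RPA135 read 10.93, 11.04 and 11.04 in wild type and 10.69, 10.79 and 10.79 in scc2-4, a change of −0.25 ± 0.09 (limma adjusted p = 0.0384). Both catalytic subunits again had separate ranges, the 2 of 8 genes for which this held, beside 19.6% of all genes that were lower without overlap.

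RPA43 read 9.42, 9.80 and 9.81 in wild type and 9.24, 9.47 and 9.35 in scc2-4 with a break, a change of −0.33 ± 0.11 (limma adjusted p = 0.0243). RPA49 changed by −0.28 ± 0.14 (limma adjusted p = 0.126) and RPA34 by −0.15 ± 0.09 (limma adjusted p = 0.206). RPA12 gave 0.03 ± 0.06, against −0.21 without a break, and RPA14 and RRN3 gave 0.00 and −0.02. RPA190 passed in every fit that left out 1 array, RPA135 missed the threshold in 5 of the 27 and RPA43 in 4. All of these losses came from leaving out an array of the groups compared, which hold 3 arrays each. Leaving out any other array keeps the estimate and alters only the shared spread. Quantile normalization over all arrays and centring of each array left the same calls in experiment 1, with and without a break.

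**Figure D2:**
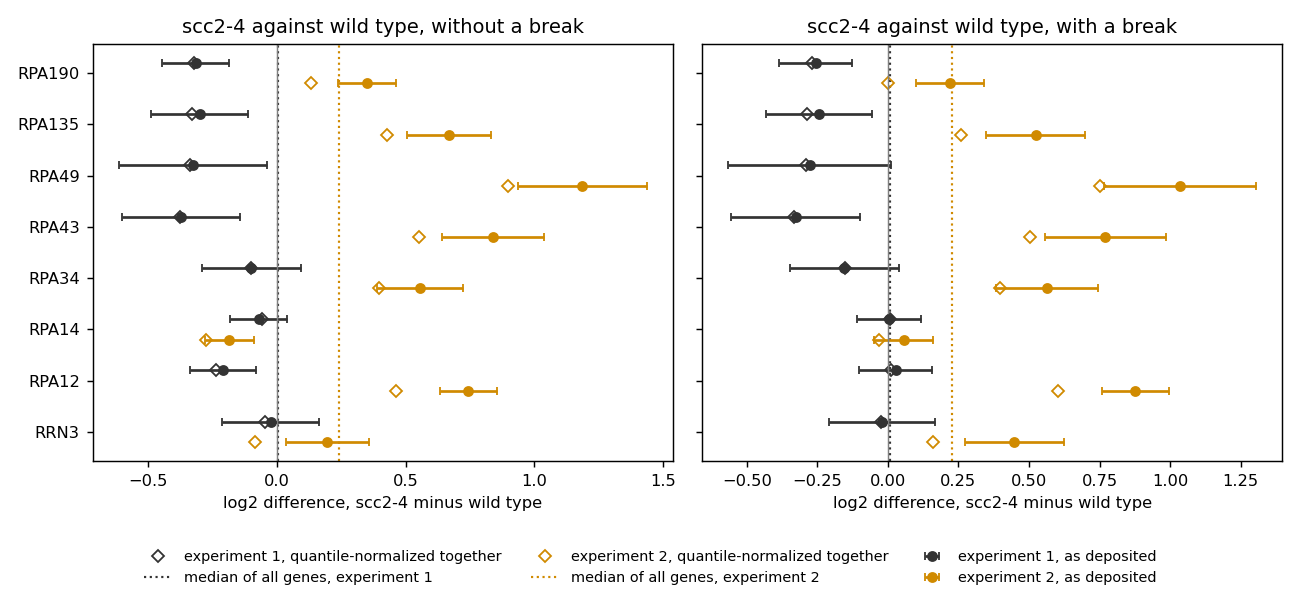
Difference between scc2-4 and wild type for each gene (log2 units) in the 2 experiments, without and with a break. Points are limma estimates and bars are 95% intervals. In experiment 1 the values run from −0.37 to 0.03, and in experiment 2 from −0.18 to 1.19, where genotype and set of arrays cannot be told apart.

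In experiment 2 the difference had the opposite sign for most of these genes. Without a break 7 of the 8 were higher in scc2-4 and RPA14 was lower, and with a break 7 were higher and RPA14 did not pass. Across all genes 60.6% were higher and 23.3% lower without a break, 83.9% in all, and 58.6% were higher with a break. The median difference over all genes was 0.24 without a break and 0.23 with one, and of the genes that passed 72.3% and 71.5% were higher. After quantile normalization over all arrays these shares were 52.5% and 51.8%, and after centring each array on its median they were 48.8% and 47.7%. Of the 8 genes, 6 and 5 were then higher after quantile normalization, beside 40.9% and 40% of all genes, and 5 and 6 after centring, beside 38.7% and 37.4%.

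The 8 genes spread widely around the median of all genes. RPA49 showed the largest difference of the 8, from 9.73, 9.59, 9.97 and 9.97 in wild type to 11.12, 10.83, 11.09 and 10.98 in scc2-4 without a break, or 1.19 ± 0.12 (2.28-fold). This was 0.95 above the median of all genes, and 0.90 after quantile normalization. RPA43 followed, from 9.47, 9.31, 9.50 and 9.55 to 10.35, 10.17, 10.37 and 10.28, or 0.84 ± 0.10. RPA12 went from 10.04, 10.07, 9.95 and 9.98 to 10.76, 10.70, 10.82 and 10.74, or 0.74 ± 0.05. For all 3 genes every scc2-4 array lay above every wild-type array, as it did for 58% of all genes.

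RPA135 differed by 0.67 ± 0.08, RPA34 by 0.56 ± 0.08 and RPA190 by 0.35 ± 0.05 without a break. RPA190 stood nearest to the median among the subunits that were higher, 0.11 above it, and after quantile normalization its difference was 0.13 without a break and 0.00 with one. RRN3 differed by 0.20 ± 0.08, which was 0.04 below the median, and its sign turned to −0.08 after quantile normalization. RPA14 read 12.65, 12.76, 12.58 and 12.62 in wild type and 12.44, 12.55, 12.40 and 12.48 in scc2-4, a difference of −0.18 ± 0.05, or −0.42 against the median of all genes. With a break the 8 genes gave 0.22 (RPA190), 0.52 (RPA135), 1.03 (RPA49), 0.77 (RPA43), 0.56 (RPA34), 0.06 (RPA14), 0.88 (RPA12) and 0.45 (RRN3).

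The direction of the genotype difference thus was not the same in the 2 experiments for most of these genes. The difference of experiment 2 minus that of experiment 1, averaged over cells with and without a break, was 1.41 ± 0.13 for RPA49, 1.15 ± 0.11 for RPA43, 0.90 ± 0.06 for RPA12, 0.87 ± 0.09 for RPA135, 0.69 ± 0.09 for RPA34, 0.57 ± 0.06 for RPA190 and 0.34 ± 0.09 for RRN3. All 7 passed the test, as did 82.2% of all genes, 60.5% in the same direction. The median of this value over all genes was 0.24, and RRN3 lay 0.10 above that median. RPA14 gave −0.03 ± 0.05 (limma adjusted p = 0.591). Within each set of arrays the order of the group means can be read for each gene. In experiment 1 the span from the highest to the lowest group mean ran from 0.07 (RPA14) to 0.42 (RPA49).

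The second question was how the genes respond to the break. In wild type, as the mean of the 2 experiments, RPA12 and RRN3 were lower with a break, and the other 6 genes changed by −0.11 to −0.03 and did not pass. Across all genes 14.6% passed, 6.22% as lower. RPA12 fell by 0.17 ± 0.04 (limma adjusted p = 0.00822) and RRN3 by 0.21 ± 0.06 (limma adjusted p = 0.0204).

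Both falls were larger in experiment 2. RPA12 went from 10.04, 10.07, 9.95 and 9.98 without a break to 9.75, 9.72 and 9.67 with one, a change of −0.30 ± 0.06 with separate ranges (limma adjusted p = 0.00123). RRN3 went from 9.17, 9.11, 9.11 and 8.92 to 8.93, 8.67 and 8.65, a change of −0.33 ± 0.08 with 1 array of each group overlapping (limma adjusted p = 0.0101). Across all genes 8.47% were lower by this test in wild type of experiment 2. RPA34 changed by −0.25 ± 0.09 there and just missed the threshold (limma adjusted p = 0.0506), from 11.69, 11.63, 11.74 and 11.76 to 11.49, 11.47 and 11.40, with separate ranges.

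RPA12 and RPA34 were the 2 of 8 genes without overlap in wild type of experiment 2, beside 14.9% of all genes that were lower without overlap. In experiment 1 RPA12 changed by −0.04 ± 0.06 and RRN3 by −0.10 ± 0.09, and none of the 8 passed the limma test, nor any at an unadjusted p under 0.05, while 1.18% and 12.2% of all genes did. The difference between the experiments did not pass the test for any of the 8 (−0.26 ± 0.08 for RPA12, limma adjusted p = 0.287; −0.23 ± 0.12 for RRN3, limma adjusted p = 0.406). Of all genes 0.092% passed it. Without any one of wild-type arrays 1_3 (no break), 1_1, 2_2 or 2_3 (break), RRN3 missed the threshold, while RPA12 passed in all 27 such fits. Only the fits without a wild-type array alter these estimates.

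In scc2-4, RPA14 was higher with a break, by 0.12 ± 0.04 as the mean of the 2 experiments (limma adjusted p = 0.0423), and none of the other 7 passed, with changes of −0.13 to 0.01. Across all genes 7.47% passed, 4.07% as higher. In experiment 2 RPA14 went from 12.44, 12.55, 12.40 and 12.48 to 12.70, 12.65, 12.61 and 12.56, a change of 0.16 ± 0.05 with separate ranges. In experiment 1 it went from 12.80, 12.86 and 12.70 to 12.89, 12.83 and 12.86, or 0.07 ± 0.05, with overlap. Its call was lost after quantile normalization and in 12 of the 27 fits with 1 array omitted. Only the scc2-4 arrays, 7 without and 7 with a break, enter this estimate. Among the fits that left out 1 of them, the call held only without no-break array 1_2 or 2_2 or break array 2_4.

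The other subunits had negative values in scc2-4 cells with a break in experiment 2, and 1 of them, RPA190, passed. RPA190 went from 11.79, 11.67, 11.74 and 11.71 to 11.45, 11.53, 11.56 and 11.59, a change of −0.19 ± 0.05 (limma adjusted p = 0.0325), in a comparison where 3.72% of all genes were lower and 3.81% higher. RPA49 gave −0.32 ± 0.12, RPA135 −0.25 ± 0.08, RPA43 −0.24 ± 0.10, RPA34 −0.24 ± 0.08 and RPA12 −0.17 ± 0.05, with limma adjusted p from 0.0571 to 0.116. In this comparison 5 of the 8 genes were lower without overlap and 1 was higher, beside 12% and 9.9% of all genes.

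In experiment 1 the same genes gave −0.02 to 0.19 in scc2-4, and none passed the limma test (1 of the 8 at an unadjusted p under 0.05), beside 3.64% of all genes (19% unadjusted). RPA12 was the largest, from 10.14, 10.29 and 10.19 to 10.31, 10.41 and 10.48, or 0.19 ± 0.06 (limma adjusted p = 0.0881), the 1 gene of 8 that was higher without overlap, beside 11.1% of all genes. In a fit to experiment 2 alone 6 of the 8 genes passed in scc2-4, 5 lower and RPA14 higher, beside 10.4% of all genes. The test of the difference between the experiments passed for none of the 8, with RPA12 nearest at −0.36 ± 0.08 (limma adjusted p = 0.0945), and for 0.0736% of all genes. At an unadjusted p under 0.05 it passed for 5 of the 8 in scc2-4, beside 18.1% of all genes, and for 2 of the 8 in wild type, beside 13.3%.

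**Figure D3:**
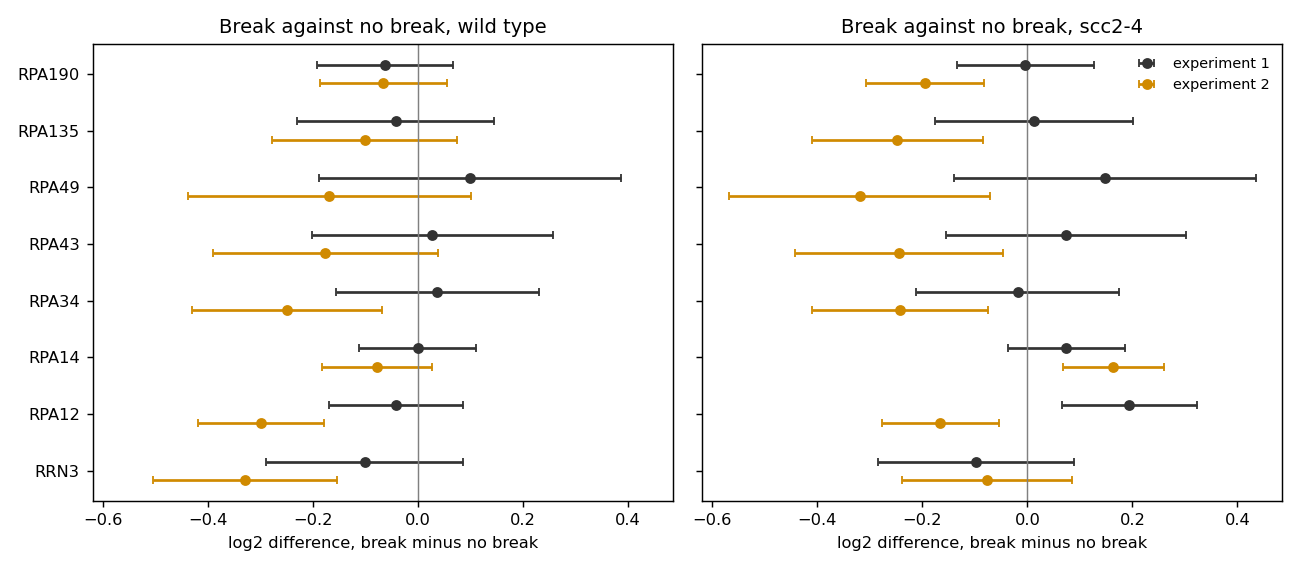
Change with a break (log2 units) for each gene, in wild type and in scc2-4, separately in experiment 1 and experiment 2. Points are limma estimates and bars are 95% intervals. RPA12 and RRN3 in wild type of experiment 2 lie at −0.30 and −0.33, and RPA14 in scc2-4 of experiment 2 lies at 0.16 while RPA190 lies at −0.19.

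The third question was whether the response to the break depends on the genotype. None of the 8 genes passed the limma test of this interaction, while 3.92% of all genes did. At an unadjusted p under 0.05, 19.2% of all genes and 2 of the 8 passed, RPA12 (0.18 ± 0.06, limma adjusted p = 0.0825; 95% interval from 0.06 to 0.31) and RPA14 (0.16 ± 0.05, limma adjusted p = 0.0876; 95% interval from 0.05 to 0.26), each with a break effect that was more positive in scc2-4 than in wild type. RRN3 gave 0.13 ± 0.09 (limma adjusted p = 0.435). The catalytic core, RPA43, RPA49 and RPA34 gave −0.05 to −0.01, with intervals that reached as far as −0.33 and 0.22. In this fit the fall of RPA12 and RRN3 in wild type is therefore not shown to differ from their values in scc2-4. With a replicate block RPA12 (0.19, limma adjusted p = 0.028) and RPA14 (0.16, limma adjusted p = 0.0191) passed, among 378 of all genes. RRN3 did not (limma adjusted p = 0.289). Same-numbered arrays did not all pair across break states, so that block is uncertain here.

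The genes also varied together between replicate arrays of one group. In experiment 1 the mean deviation of the 7 genes other than RPA14 from their group mean ran up to 0.21, on wild-type array 1_3 without a break, where all 7 were above their mean. The lowest was −0.17, on wild-type array 1_1 with a break, where none was. In experiment 2 the largest deviation was 0.11 in size. RPA14 deviated in the direction opposite to the mean of the other 7 on 22 of the 27 arrays, 10 of 12 in experiment 1 and 12 of 15 in experiment 2. This grouping was made after the values were seen and is given as a description with no test. Deviations cancel within each group, so the arrays are not separate observations. No share over all genes is given beside these counts.

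**Figure D4:**
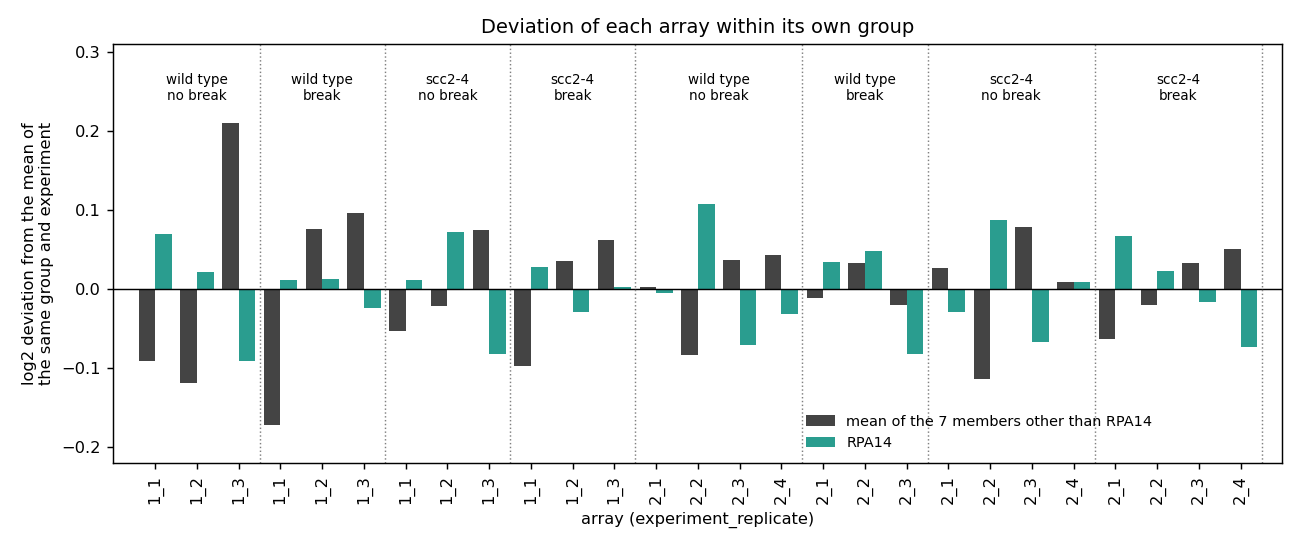
Deviation from the group mean (log2 units) on each of the 27 arrays, for the mean of the 7 genes other than RPA14 and for RPA14. The 7 genes range up to 0.21 above their group mean on wild-type array 1_3, and RPA14 lies on the other side of 0 on 22 arrays.

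The genes that most resembled the mean profile of the 8, by the root-mean-square distance over the 27 arrays after centring each set, were RLP7 (0.0276), PNO1 (0.0347), NAN1 (0.0375), RPC31 (0.0377) and NOP58 (0.0388). The median distance of all genes was 0.151, and a flat profile would lie 0.112 away. RLP7 and PNO1 are assembly factors of the large and the small ribosomal subunit, NAN1 binds the pre-rRNA, RPC31 is a subunit of RNA polymerase III and NOP58 is a core protein of box C/D snoRNPs. Among the 8 themselves RPA34 lay nearest to their mean (0.0566) and RPA14 farthest (0.152). In experiment 1 without a break RLP7 (−0.21), PNO1 (−0.19), NAN1 (−0.25) and RPC31 (−0.23) had negative differences that passed, and NOP58 gave −0.16 without passing. The profile holds the genotype difference of experiment 1, so this direction follows from how the genes were picked.

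Other genes of rRNA synthesis were read from lists fixed by name. RPC40 and RPC19, which form the assembly platform shared by polymerases I and III, gave −0.20 ± 0.10 and −0.23 ± 0.08 in experiment 1 without a break, and RPC19 passed (limma adjusted p = 0.0379). None of the 5 subunits shared by all 3 polymerases passed the limma test (median −0.08), and 1 did at an unadjusted p under 0.05, beside 44% of all genes. Of 10 subunits specific to polymerase III, 3 were lower and none higher (median −0.09), among them RPC53 (−0.25) and RPC31 (−0.23). Of all genes 16.7% were lower in this comparison. With 1 array left out at a time, 0 to 3 genes of this list passed, and 0 to 1 of RPC40 and RPC19. Of 7 subunits specific to polymerase II, RPB2 was lower (−0.20), RPB7 was higher (0.10), and the median was −0.05. The median of the 8 polymerase I genes, −0.25, lay below those of these lists, which were not compared by a test.

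Among the 8 genes of the rDNA promoter factors (core factor, upstream activating factor and the TATA-binding protein), RRN5 of the upstream activating factor fell by 0.39 ± 0.06 (limma adjusted p = 4.78e-05). RRN9 of the same complex rose by 0.13 ± 0.04 (limma adjusted p = 0.0267), and the core factor gene RRN11 gave −0.26 ± 0.11 without passing. The list's median was −0.07, with 1 gene lower and 1 higher, beside 34.5% of all genes in either direction. With 1 array left out at a time, 1 to 3 of its genes passed. Of 7 genes of rDNA chromatin, fork barrier and termination, 2 were lower (median −0.02), beside 16.7% of all genes. REB1, a DNA-binding protein of the rDNA terminator and many promoters, fell by 0.27. SIR2, the rDNA silencing deacetylase, fell by 0.17 (limma adjusted p = 0.0462). Here too 1 to 3 genes passed with 1 array left out at a time.

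Of the 7 t-UTP proteins, which bind the nascent pre-rRNA, 2 were lower (median −0.16), beside 16.7% of all genes. UTP8 fell by 0.43 ± 0.12 and NAN1 fell by 0.25 ± 0.06. With 1 array left out at a time, 1 to 2 genes of this list passed. Among 11 regulators of ribosome synthesis genes, TOD6, a repressor of ribosome biogenesis genes, fell by 0.63 ± 0.10 (limma adjusted p = 3.81e-05). TOR1, a growth-signalling kinase, rose by 0.16 ± 0.05 (limma adjusted p = 0.013), and the median of this list was −0.02. No other regulator passed, beside 34.5% of all genes in either direction. With 1 array left out at a time, 1 to 3 regulators passed.

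**Figure D5:**
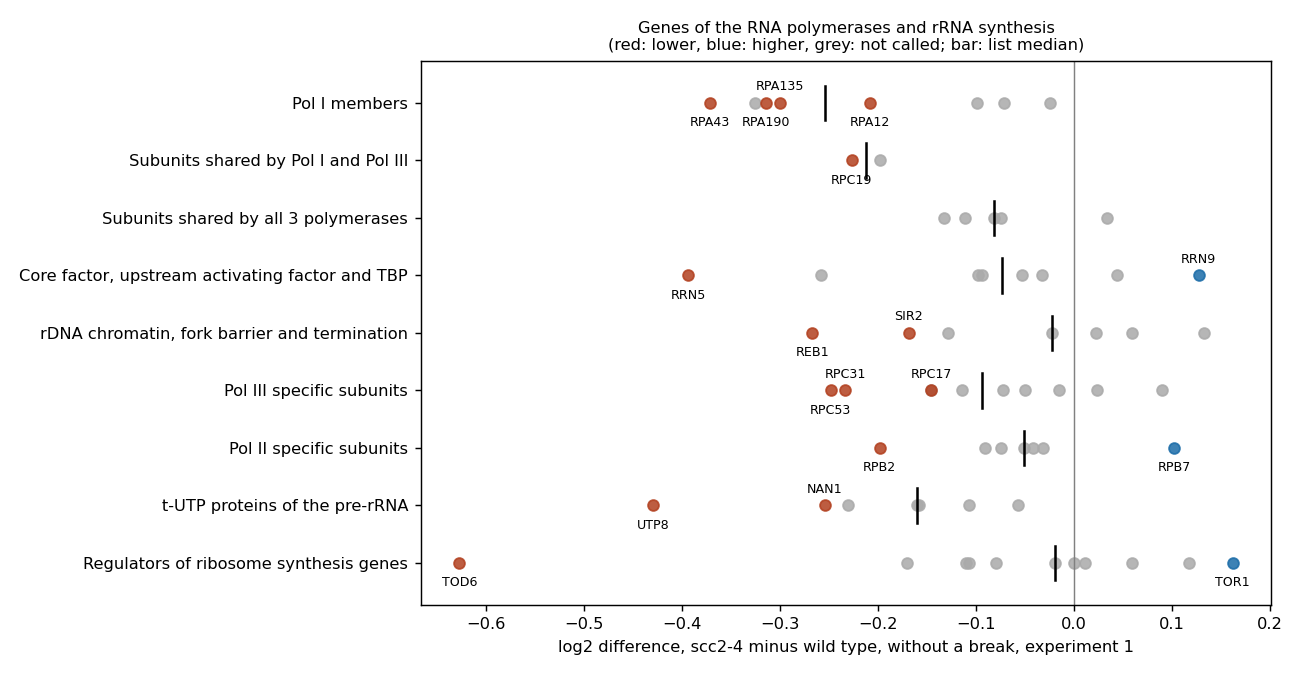
Difference between scc2-4 and wild type without a break in experiment 1 (log2 units) for every gene of the 9 lists, one point per gene (red lower, blue higher, grey not passing), with the median of each list as a bar. The polymerase I genes have a median of −0.25, and TOD6 among the regulators lies at −0.63.

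With the break in wild type, 8 of the 57 genes of these 8 lists passed (14%), beside 14.6% of all genes. CDC14, the phosphatase held in the nucleolus on the rDNA until late mitosis, fell by 0.67 ± 0.04 (limma adjusted p = 5.1e-12), by 0.43 in experiment 1 and by 0.91 in experiment 2. The value of −0.67 was the lowest of all 5434 genes in this comparison. Whether the position of CDC14 relative to the cut site plays a part was not tested. RRN6 of the core factor fell by 0.16, RRN10 of the upstream activating factor fell by 0.14, and RRN5 rose by 0.18. The shared subunits RPB8 and RPC10 fell by 0.17 and 0.12, RPC17 of polymerase III fell by 0.12, and REB1 fell by 0.19. In scc2-4, NSI1, an rDNA termination factor, fell by 0.15 (1 of 7 in its list). RPO31, the largest polymerase III subunit, fell by 0.11 (1 of 10), and the regulators IFH1 and TOR1 fell by 0.15 and 0.11 (2 of 11). No gene of the other lists passed in scc2-4, where 7.47% of all genes did. Among the 57 genes the interaction passed for CDC14 (0.57), RRN6 (0.24) and NSI1 (−0.18), beside 3.92% of all genes.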

How the data were processed

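RNA was hybridised to 27 one-colour arrays, and the authors deposited 1 table of log2 values for 5684 probe sets. Per the submitters' processing notes, the tools were RMA and R 2.9.2. Which arrays shared an RMA run is not given in the sources used here. RMA quantile-normalizes arrays that are processed together, so values from different runs need not share a scale. No scanner files were used here, and the centring of each column is unknown, with column medians from 9.76 to 10.22. Gene names came from the platform annotation and RefSeq (5468 probe sets named, 5434 genes). Where a gene had more than 1 probe set (34 genes), that of highest mean stood for it.

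One limma model (limma 3.58.1, R 4.3.3) with 8 cells, the 4 groups in 2 experiments, was fitted to all genes, and p-values were adjusted by Benjamini-Hochberg. Break effects and the interaction are means of the 2 experiments. The script was tested on simulated data. The labels call the replicates biological and do not say whether they were separate cultures of 1 strain or several. The number of arrays limits the precision. Deviations of same-numbered arrays from their group means correlated over 0.1 in every pair for the genotypes of experiment 1 (0.33 to 0.65 without a break, 0.35 to 0.77 with one), which counts there as pairing, as a hint from the data and not from the labels. No other pair of groups met this (25 of 39 pairs over 0.1 in all, lowest −0.67). No pair of arrays was identical, and within a group the median absolute difference between 2 arrays ran from 0.0357 to 0.122. In each group of experiment 1, 2 of the 3 arrays lay closer to each other than to the third. The closer pairs differed by 0.0359 to 0.056, and the other pairs by 0.09 to 0.122. The main fit treats the 3 arrays as separate, and the fits with the 2 closest arrays averaged treat such a pair as 1 value.

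The members and lists were chosen with earlier results of these data known. All members are named. Of each other list, the 3 genes with the largest change between the genotypes in experiment 1 without a break may be named, with any called in the break comparisons or the interaction, and the 5 genes most like the members' mean. Alternatives covered the model, normalization, filter, weights, blocks and single arrays. A planned description of promoter motifs was not run, since no promoter sequence was used here.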

Additional observations from a re-analysis of the deposited data

Results flagged for a closer look

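The difference between scc2-4 and wild type was not the same in the 2 experiments for 7 of the 8 polymerase I genes, by a limma test of that difference itself. Experiment 2 minus experiment 1 gave 0.57 for RPA190, 0.87 for RPA135, 1.41 for RPA49, 1.15 for RPA43, 0.69 for RPA34, 0.90 for RPA12 and 0.34 for RRN3 (log2 units). The median over all genes was 0.24, and RRN3 lay 0.10 above it. In experiment 2 the genotypes were deposited on different value distributions, 82.2% of all genes passed the same test, and their part in these values cannot be told apart from that of genotype.

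The break effect differed between scc2-4 and wild type, by the interaction test, for 3 of the 57 genes of the other lists. Of all genes 3.92% passed this test. CDC14 gave 0.57, RRN6 gave 0.24 and NSI1 gave −0.18. A role of the position of CDC14 relative to the cut site was not tested. CDC14 read 10.90 and 10.33 (means, experiments 1 and 2) without a break and 10.47 and 9.42 with one in wild type. In scc2-4 it read 11.03 and 10.59 without a break and 10.98 and 10.45 with one.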

How the results depend on the processing

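Of 640 values of the 8 genes under alternatives other than leaving out an array, 574 kept their side of the threshold, 20 newly passed, 30 no longer passed and 16 reversed. A change of sign was counted as reversed only where the value passed in the main fit or in the alternative. Values that passed in neither fit count among the 574 even where their sign changed. In experiment 1 without a break 1877 genes passed, and 3594 did under an additive fit of group and experiment, 2959 with array weights and 1142 with the 2 closest arrays of each group averaged; of the 8, 4 passed, and 2 did in experiment 1 alone and 2 with averaging. The additive fit mixes both experiments and reversed RPA190 (0.065), RPA135 (0.25), RPA49 (0.54), RPA43 (0.32), RPA34 (0.28) and RPA12 (0.34). With a break the counts of genes were 3356, 3074 and 1095 against 1970, and of the 8, 3 passed, 6 with weights and 1 with averaging; the additive fit reversed RPA135 (0.16), RPA43 (0.25) and RRN3 (0.23). In experiment 2 the additive fit passed 4 and 2 of the 8, and reversed RPA190 with a break (−0.0048). Quantile normalization reversed RRN3 without a break (−0.085) and RPA190 with one (−0.0013), and centring reversed RRN3 (−0.049), RPA190 (−0.026) and RPA14 with a break (−0.19). For the break in wild type 791 genes passed, 103 in the additive fit, 22 in experiment 1 alone, 1273 in experiment 2 alone, 1271 with weights and 369 with averaging; of the 8, 2 passed, 0 in the additive fit and in experiment 1 alone, 1 with the processing set as a block and 1 with averaging. In scc2-4 406 passed, 33 in the additive fit, 36 in experiment 1 alone, 2112 with weights and 65 with averaging; of the 8, 1 passed, 0 in the additive fit, in experiment 1 alone, after quantile normalization and with averaging, 6 in experiment 2 alone, where RPA12 reversed (−0.17), and 2 with weights. For the interaction 213 passed, 19 in the additive fit, 139 with the set as a block, 11 in experiment 1 alone, 139 in experiment 2 alone, 716 with weights and 42 with averaging; of the 8, none passed and 1 did with weights. The cause of these changes was not tested beyond the samples each fit leaves out. With a replicate block 657 genes passed for the break in scc2-4 and 378 for the interaction, where 2 of the 8 passed, RPA14 (0.16) and RPA12 (0.19); in experiment 1 it passed 5 and 4 of the 8, RPA49 being the added gene. Across break states same-numbered arrays did not all pair. Within each genotype of experiment 1, replicates 1 and 3 correlated (0.58 to 0.70), while replicate 2 gave −0.67 in wild type and −0.31 in scc2-4. With the block of experiment 1 within each break state no other call of the 8 changed. Leaving out 1 array at a time gave 1 to 5 of the 8 in experiment 1 without and with a break (1540 to 1947 and 1612 to 2074 genes), 7 to 8 and 7 to 7 in experiment 2 (4446 to 4590 and 4310 to 4492 genes), 1 to 2 for the break in wild type (638 to 872 genes), 0 to 1 in scc2-4 (253 to 551 genes) and 0 to 1 for the interaction (123 to 288 genes). The set block could not give a genotype value in experiment 2. The 3 or 4 arrays per group and experiment limit what can be called.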
